A study of Bos taurus with 14 samples.

Results

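Solute carriers are membrane proteins that move small molecules across the cell surface or the membranes of organelles. The members described here are those for inorganic ions, metals, nucleosides, nucleotide sugars, sulfate, bile acids and related small ions. They were taken by gene symbol, as every probe set of the array whose only symbol in the platform annotation belongs to 1 of the chosen SLC families. The rule itself uses no measured value, but the families, with SLC5A5 and SLC34A2 by name, were picked with earlier results of these data known. The rule found 107 of 24016 probe sets, for 77 of 9155 named genes. Of these genes 58 had 1 probe set and 19 had more, up to 4. One gene matched by name only: SLC4A1AP encodes a protein that binds an anion exchanger and is no carrier itself, so it is counted as a group of its own.

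Many of these carriers use the sodium gradient kept up by the sodium pump to pull a second solute into the cell, as for iodide, phosphate, sulfate and sugars. Others exchange one ion for another, let solutes run down their gradient, or load organelles, as when zinc enters vesicles or nucleotide sugars enter the Golgi for the building of glycan chains. Before implantation a ruminant conceptus takes its ions, trace metals and nucleosides from the fluid secreted by the uterus, across the trophectoderm that forms its outer layer. In cattle that layer lengthens greatly in the days before attachment.

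Expression was measured in 14 whole Holstein conceptuses, each on its own Affymetrix array. All had the same sire, were collected from donor cows as embryos on Day 6.5, graded by morphology, transferred to recipient heifers in lots of 2 to 6, and flushed out on Day 15. From Grade 1 embryos came 5 long conceptuses (1 male, 4 females), 5 short ones (2 males, 3 females) and 1 male with no recorded length. From Grade 3 embryos came 3 conceptuses (2 males, 1 female). The sample labels give no drug treatment or engineered allele for any group. What donors and recipients received before collection and transfer is not described here. The labels do not tie conceptuses to dams or recipients, so p-values measure only the spread between these conceptuses, which may have shared a uterus.

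Values are RMA log2 expression values, on which a difference of 1 is a doubling; the level of one probe set cannot be set against that of another. Arrays have no read depth, and their number limits the precision: the 95% interval of the length difference reached 0.206 to either side at the median member probe set. Of the 107 member probe sets, 69 had a mean of 5 or more, against 13995 of all 24016. For 1 conceptus, short replicate 1, one label gives long and the length entry gives short; the length entry was followed. Short replicates 4 and 5 stood lowest on the first principal component of all arrays, at -23.8 and -38.4, and long replicates 1 and 2, which share a title prefix, stood highest, at 26.7 and 31.6. Results were recomputed with the conceptus of disagreeing labels moved to the long group and with either pair left out. Markers of trophectoderm averaged 10.98 to 11.25 per conceptus over 6 measured genes, and those of endometrial epithelium 4.19 to 4.48 over 9. These averages come from different probe sets, so the gap between them does not measure how much of either tissue was present.

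The first comparison asked which carriers differ between long and short Grade 1 conceptuses of the same age. In limma 9 genes passed at an adjusted p under 0.05, the threshold used throughout. Long conceptuses had more RNA of SLC31A2 and SLC11A1, metal carriers of internal compartments, and of SLC35A3 and SLC35A1, Golgi carriers of nucleotide sugars. They had less of the iodide symporter SLC5A5, the zinc carrier SLC30A2, the nucleoside carrier SLC29A2, the probe set annotated as the sodium-proton exchanger SLC9A3 and the nucleotide sugar family member SLC35A4. SLC5A5 differed 3.27 fold, and the other 8 by 1.22 to 1.62 fold.

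These calls were 9 of 107 probe sets (8.41%), 4 higher and 5 lower in long conceptuses, against 6.57% of all 24016 probe sets (2.70% higher and 3.87% lower). By genes, with the brightest probe set standing for each, 9 of 77 (11.7%) passed against 870 of 9155 (9.5%). Shares so near the background are no result about the carriers as a class. The median difference of the 77 genes was -0.027, long minus short, beside -0.035 for all named genes. Long and short values were fully separated in 12 member probe sets (11.2%), 4 higher and 8 lower in long conceptuses, and in 8.42% of all. An unadjusted p under 0.05 was reached by 26 (24.3%), against 22% of all; with an unadjusted p under 0.01 and 1.5 fold together there were 2, SLC5A5 and SLC31A2, against 2.31% of all. Since RNA of whole conceptuses was used, fewer cells of a type and less RNA per cell cannot be told apart in any of these differences.

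**Figure D1:**
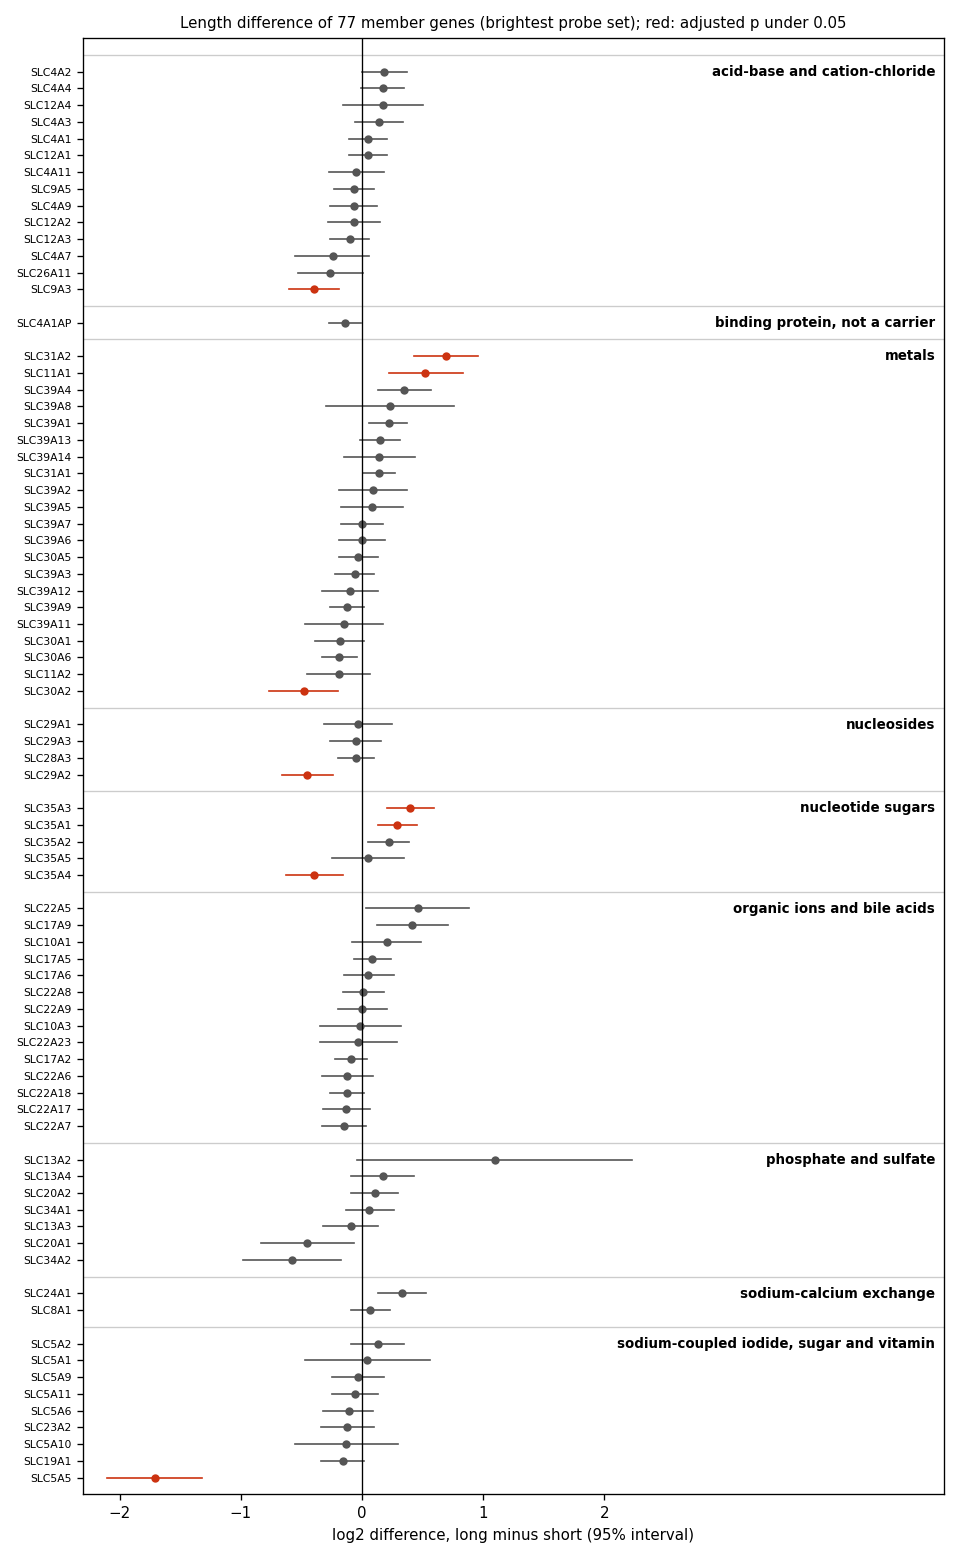
Length difference of each of the 77 genes, by transport group; points are the limma log2 differences, long minus short, of the brightest probe set, bars their 95% intervals, and red marks an adjusted p under 0.05. SLC5A5, at -1.71, lies far to the left, most genes lie close to 0, and SLC13A2 has the widest interval (-0.04 to 2.23).

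SLC5A5, the sodium-iodide symporter, brings iodide into thyroid cells and is also made in lactating mammary gland and placenta. Its log2 values were 5.58, 5.52, 6.09, 6.09 and 5.97 in long replicates 1 to 5, and 7.14, 7.26, 7.64, 8.07 and 7.69 in short replicates 1 to 5. Every short conceptus was above every long one. The means were 5.85 ± 0.28 (SD, n = 5) and 7.56 ± 0.37 (SD, n = 5), a difference of -1.71 ± 0.18 (SE) with limma adjusted p = 0.00627. The conceptus with no recorded length measured 7.01, outside both groups and nearer the short one. Grade 3 conceptuses measured 6.32, 6.90 and 6.56, all of them above the long and below the short group.

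The remaining 8 genes of the sodium-coupled iodide, sugar and vitamin group did not pass. They carry glucose, other sugars, inositol, folate, ascorbate or biotin with pantothenate, and their differences ran from -0.16 for the reduced folate carrier SLC19A1 to 0.13 for the renal glucose carrier SLC5A2. The group's median was -0.11, with 2 of 9 genes above 0. The intestinal glucose carrier SLC5A1 differed by 0.04, with an interval of -0.47 to 0.56 that leaves room for a sizeable change either way.

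Among the genes that handle iodide or respond to thyroid hormone, 8 of 17 listed were measured, and 0 passed for length in limma, also at an unadjusted p under 0.05 (median -0.01). Thyroglobulin (TG) differed by 0.03, the thyrotropin receptor TSHR by -0.15, the iodide-salvaging enzyme IYD by -0.00 and the potassium channel subunits KCNQ1 and KCNE2 by -0.13 and -0.01. PAX8, a transcription factor of thyroid and uterine epithelium, differed by -0.03. The iodide carrier thus had no listed companion past the threshold. Among all named genes 9.5% passed and 28.9% had an unadjusted p under 0.05. Means of the 8 measured genes over the 14 arrays ran from 3.39 (KCNE2) to 5.67 (THRA), and RMA compresses small differences at low intensity. So few and mostly dim genes cannot show whether the iodide carrier changes alone.

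Of 21 metal carriers, 2 were higher and 1 lower in long conceptuses, beside 9.5% of all named genes called. The group median was 0.00. SLC31A2, a copper carrier found mainly on endosomes and lysosomes, measured 7.72, 8.04, 7.43, 7.28 and 7.56 in long conceptuses and 6.90, 6.99, 6.96, 6.88 and 6.84 in short ones. The short group was tight and lay wholly below the long group. The difference was 0.69 ± 0.12 (SE; limma adjusted p = 0.0127), or 1.62 fold. SLC31A1, the copper importer of the cell surface, differed by 0.14, with adjusted p = 0.179.

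SLC11A1, which moves iron and manganese out of phagosomes, measured 5.05, 5.46, 5.01, 5.26 and 5.54 in long and 4.37, 5.01, 4.59, 4.86 and 4.85 in short conceptuses. The groups met at long replicate 3 and short replicate 2, both at 5.01. The difference was 0.52 ± 0.14 (SE; limma adjusted p = 0.0461). It was 0.26 (adjusted p = 0.431) with title prefixes as fixed blocks and 0.28 (adjusted p = 0.452) with short replicate 1 counted as long. SLC11A1 is best known from macrophages. Of 9 measured markers of blood and immune cells 1 passed for length, beside 9.5% of all named genes. This marker moved the other way (CD8A, -0.84 ± 0.20, limma adjusted p = 0.0322). The macrophage genes CD68, CD14 and CSF1R differed by -0.55, -0.03 and -0.06 and did not pass, and the list averaged 4.57 to 4.84 in long and 4.75 to 5.04 in short conceptuses. SLC11A2, the iron importer of the gut and of endosomes, differed by -0.19 (adjusted p = 0.391).

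SLC30A2, which loads zinc into secretory vesicles and supplies zinc to milk, measured 5.73, 6.00, 6.24, 6.04 and 5.85 in long and 6.71, 6.33, 6.19, 6.29 and 6.76 in short conceptuses. Short replicate 3 lay below long replicate 3, so the groups overlapped. The difference was -0.48 ± 0.13 (SE; limma adjusted p = 0.0484). With title prefixes as fixed blocks it was -0.24 (adjusted p = 0.45), and with short replicate 1 counted as long -0.30 (adjusted p = 0.371). The other zinc exporters measured, SLC30A1, SLC30A5 and SLC30A6, differed by -0.18, -0.03 and -0.19 and did not pass.

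Zinc importers of the SLC39 family did not pass either. SLC39A4, the importer whose loss causes inherited zinc deficiency, came nearest at 0.35 ± 0.10 (SE; limma adjusted p = 0.0627). It measured 8.71 to 8.97 in long and 8.18 to 8.73 in short conceptuses, which overlapped. SLC39A1, a widespread importer, differed by 0.22 (adjusted p = 0.0973), and its 5 long values, 9.79 to 10.05, all lay above the short ones, 9.51 to 9.75. The 2 probe sets of SLC39A9, a carrier of the Golgi and cell surface, differed by -0.12 and -0.18 (adjusted p = 0.32 and 0.0673). SLC39A6 and SLC39A7 stood at 0.00 and -0.00, with intervals that reached to -0.19 and 0.19 for the first.

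Partner genes of metal handling gave no call. Among all named genes 9.5% passed in limma and 28.9% had an unadjusted p under 0.05. Of 11 listed genes for zinc and copper 7 were measured and 0 passed in limma, 3 having an unadjusted p under 0.05 (median -0.19); the copper chaperones ATOX1 and CCS differed by 0.09 and 0.39. Of 17 listed genes for iron 13 were measured and 0 passed, again with 3 at an unadjusted p under 0.05 (median -0.08); the transferrin receptor TFRC differed by -0.20 and the ferritin chains FTH1 and FTL by 0.01 and 0.05.

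The nucleotide sugar group holds 5 genes placed by family number, from a family known for bringing activated sugars into the Golgi. What each of these genes carries was not tested. The median difference of the 5 genes was 0.22, with 2 genes higher and 1 lower in long conceptuses. Of all named genes 9.5% passed, 299 higher and 571 lower. With only 5 genes these counts are no result about the group. SLC35A3, the carrier of UDP-N-acetylglucosamine, measured 10.72, 10.68, 10.38, 10.42 and 10.42 in long and 10.17, 10.20, 10.23, 10.04 and 10.01 in short conceptuses. The groups did not overlap, and the difference was 0.40 ± 0.09 (SE; limma adjusted p = 0.024).

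SLC35A1, the carrier of CMP-sialic acid, measured 9.84, 9.65, 9.68, 9.55 and 9.73 in long and 9.32, 9.29, 9.50, 9.44 and 9.45 in short conceptuses. Again the groups did not overlap; long replicate 4 and short replicate 3 came nearest to each other. The difference was 0.29 ± 0.07 (SE; limma adjusted p = 0.0368). SLC35A2, the UDP-galactose carrier, differed by 0.22 and its dimmer probe set by 0.17, neither past the threshold (adjusted p = 0.122 and 0.359). The 4 probe sets of SLC35A5 differed by -0.05 to 0.22, none past it.

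SLC35A4 belongs to the same family by sequence. It went the other way, with 8.89, 8.77, 9.09, 9.05 and 8.96 in long and 9.19, 9.10, 9.32, 9.48 and 9.65 in short conceptuses. The groups came close to meeting, at long replicate 3 and short replicate 2, but did not overlap. The difference was -0.40 ± 0.11 (SE; limma adjusted p = 0.0484), and its other probe set, at -0.30, had adjusted p = 0.059 and did not overlap either. Without short replicates 4 and 5 the first stood at -0.25 (adjusted p = 0.232).

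Of 4 measured nucleoside carriers 1 was lower in long conceptuses. SLC29A2, which lets nucleosides and nucleobases pass down their gradient, measured 6.86, 6.92, 6.86, 6.64 and 6.44 in long and 7.10, 7.10, 7.21, 7.18 and 7.36 in short conceptuses. The groups did not overlap; the difference was -0.45 ± 0.10 (SE; limma adjusted p = 0.0252), and -0.28 (adjusted p = 0.199) with title prefixes as fixed blocks. Its close relative SLC29A1 differed by -0.03 (-0.31 to 0.25), and the lysosomal SLC29A3 by -0.05. The 3 probe sets of the sodium-driven SLC28A3 disagreed in sign, at -0.05, 0.11 and 0.30, and did not pass (adjusted p = 0.749, 0.438 and 0.201). Of 13 listed genes for nucleoside salvage and purine breakdown, 11 were measured and 0 passed in limma, 3 having an unadjusted p under 0.05 (median -0.06). Among all named genes 9.5% passed and 28.9% had such an unadjusted p. Nearest were purine nucleoside phosphorylase (PNP, 0.41, adjusted p = 0.0591) and the ectonucleotidase ENTPD1 (-0.55, adjusted p = 0.0646).

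**Figure D2:**
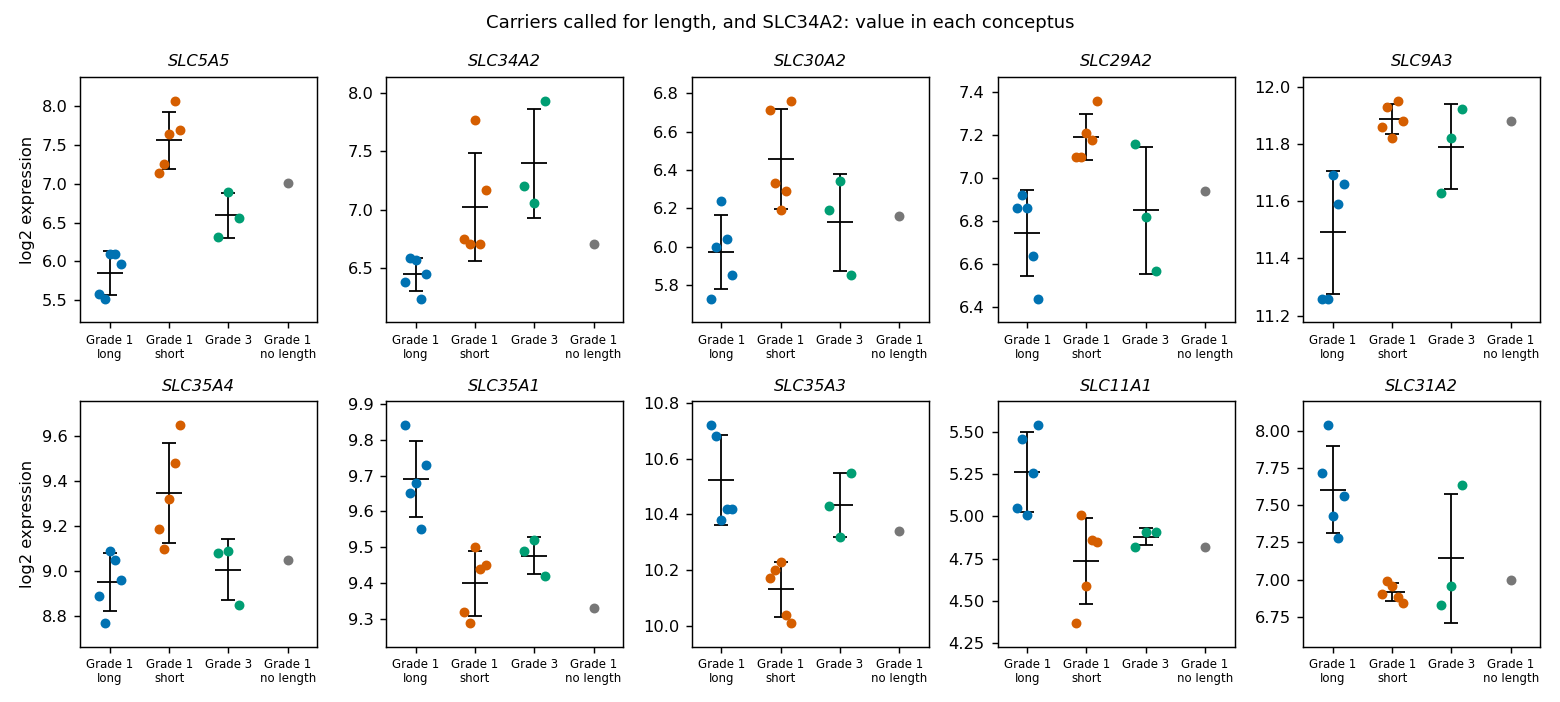
Log2 expression of the 9 genes called for length and of SLC34A2 in each conceptus; points are conceptuses, the long bar is the group mean and the whiskers 1 SD, with 5 long, 5 short and 3 Grade 3 conceptuses and 1 with no recorded length. The groups of long and short conceptuses do not overlap except for SLC30A2 and SLC11A1, and the 3 Grade 3 values of SLC5A5 (6.32 to 6.90) lie between those groups.

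In the acid-base and cation-chloride group 1 of 14 genes was lower and 0 were higher in long conceptuses (median -0.06). This stood beside 9.5% of all named genes called. SLC9A3 exchanges sodium for protons at the luminal surface of gut and kidney epithelia. Its probe set with the highest mean gave 11.26, 11.26, 11.69, 11.59 and 11.66 in long and 11.86, 11.93, 11.82, 11.95 and 11.88 in short conceptuses. The short values were close together and all above the long ones, of which replicates 1 and 2 were lowest. The difference was -0.40 ± 0.10 (SE; limma adjusted p = 0.0347). Its other probe sets, with means of 4.17 and 3.67 in long conceptuses, differed by 0.10 and 0.11 and did not pass, so the call holds for 1 of 3 probe sets. All 3 are assigned to SLC9A3 by the platform annotation alone; which of them measure that gene was not tested, and the call may belong to another transcript. Without long replicates 1 and 2 the difference was -0.24 (adjusted p = 0.135).

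The other exchangers and cotransporters ran from -0.26 for SLC26A11, a sulfate and chloride carrier, to 0.18 for SLC4A2, the chloride-bicarbonate exchanger of many epithelia. SLC12A2, which brings sodium, potassium and chloride into secretory cells, differed by -0.07 and -0.04 in its probe sets. Of 25 listed genes for sodium, chloride and acid-base balance 15 were measured. Beside 9.5% of all named genes called, 1 of these 15 was higher in long conceptuses. This was the chloride channel CLCN2, with 8.04 ± 0.18 (SD, n = 5) in long and 7.32 ± 0.43 (SD, n = 5) in short conceptuses, a difference of 0.72 ± 0.18 (SE; limma adjusted p = 0.0397). The sodium pump subunits ATP1B1 and ATP1B3 differed by 0.70 (adjusted p = 0.274) and -0.22 (adjusted p = 0.0818), the chloride channel CFTR by -0.07, and the list's median was 0.18. SLC4A1AP, the binding protein, differed by -0.14 (adjusted p = 0.209).

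None of the 7 phosphate and sulfate genes, a group that also holds carriers of citrate and related acids, passed for length; limma gave an unadjusted p under 0.05 for SLC34A2 and SLC20A1 and for 1 probe set of SLC13A4. SLC34A2 takes up phosphate with sodium in lung, gut and mammary epithelium. It measured 6.38, 6.59, 6.57, 6.24 and 6.45 in long conceptuses and 6.75, 6.71, 7.77, 6.71 and 7.17 in short ones. Short replicates 3 and 5 were well above the rest, and the other 3 short values lay just above the highest long value. The difference was -0.58 ± 0.19 (SE; limma adjusted p = 0.0911), so it missed the threshold although the groups did not overlap. With sex as a covariate it passed, at -0.64 with adjusted p = 0.0447.

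SLC20A1, the widespread phosphate importer, was also lower on average in long conceptuses, at -0.45 ± 0.17 (SE; limma adjusted p = 0.147). Long values ran from 10.52 to 10.97 and short ones from 10.68 to 11.78, and they overlapped through short replicate 4. SLC20A2 and SLC34A1 differed by 0.11 and 0.06. The 3 probe sets of SLC13A4, a sulfate carrier known from placenta, disagreed in sign, at 0.17, 0.09 and -0.23, and did not pass.

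SLC13A2, the citrate and succinate carrier of gut and kidney, had the largest SD over the 14 arrays of all 77 genes, 1.04, against a median of 0.17 for the members and 0.15 for all named genes. It measured 4.97, 6.36, 6.19, 8.22 and 7.62 in long conceptuses, 4.97, 5.16, 6.09, 5.46 and 6.21 in short ones and 6.78, 4.91 and 5.43 in Grade 3. Long replicates 4 and 5, which share a title prefix, were far above all others, and long replicate 1 was level with the lowest short one. The length difference of 1.10 ± 0.52 (SE; limma adjusted p = 0.247) was past 2 fold and within the spread between conceptuses.

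Of 17 listed genes for calcium and phosphate 8 were measured, and 1 was lower in long conceptuses, beside 9.5% of all named genes called. The phosphate-releasing enzyme ALPL, tissue-nonspecific alkaline phosphatase, measured 4.76 ± 0.19 (SD, n = 5) in long and 5.51 ± 0.17 (SD, n = 5) in short ones, a difference of -0.75 ± 0.11 (SE; limma adjusted p = 0.00902). The list's median was -0.08. The calcium pumps ATP2A2 and ATP2B1 differed by -0.11 and -0.12 and did not pass.

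The 2 sodium-calcium exchangers did not pass. SLC24A1, the exchanger of rod photoreceptors, had its probe set with the highest mean at 0.33 ± 0.09 (SE; limma adjusted p = 0.0564), with long values of 5.31 to 5.60 and short values of 4.93 to 5.41 that overlapped. Its dimmer probe sets stood at 0.00 and 0.04. The 4 probe sets of SLC8A1, the exchanger of heart muscle, ran from -0.14 to 0.07.

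None of the 14 carriers of organic ions and bile acids passed for length; in limma 3 of their genes had a probe set with an unadjusted p under 0.05. SLC22A5, which imports carnitine for fatty acid oxidation, differed by 0.46 ± 0.19 (SE; limma adjusted p = 0.193). Its short values were 7.80 to 7.94 in 4 conceptuses and 6.95 in replicate 1, and long values were 7.86 to 8.53. The dimmer probe set of SLC22A5 differed by -0.04 (limma adjusted p = 0.867), so the probe sets of this gene disagreed in sign. SLC17A9, which loads ATP into vesicles, differed by 0.41 ± 0.14 (SE; limma adjusted p = 0.096), with long values of 6.97 to 7.56 and short ones of 6.54 to 7.11. The annotated bile acid importer SLC10A1 had 4 probe sets, at 0.45, 0.64, 0.57 and 0.21, with adjusted p from 0.177 to 0.397. Here too the gene name rests on the platform annotation alone and was not tested. In all 4 of them short replicate 5 was the lowest and long replicate 4 the highest of the 14 conceptuses.

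**Figure D3:**
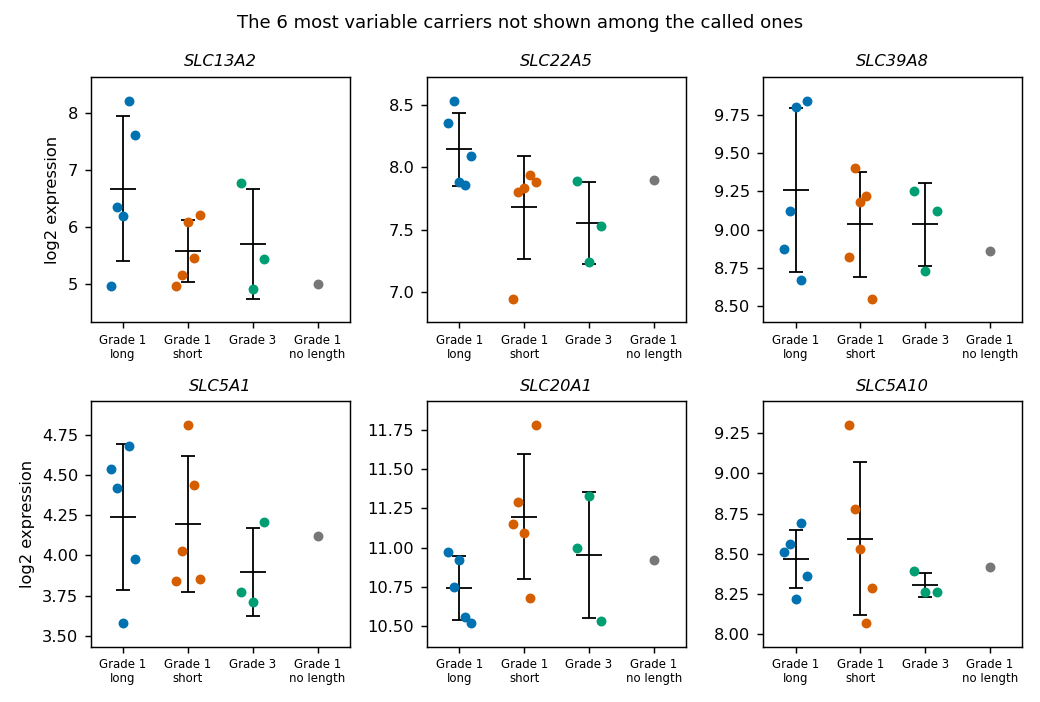
Log2 expression in each conceptus of the 6 genes with the largest SD over the 14 arrays among those not called and other than SLC34A2; points are conceptuses, the long bar is the group mean and the whiskers 1 SD. SLC13A2 reached 8.22 and 7.62 in a pair of long conceptuses, and SLC22A5 fell to 6.95 in 1 short conceptus.

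Folate carriers work with the enzymes of one-carbon metabolism. The list of 11 folate and thiamine genes, of which 7 were measured, had 3 lower and 0 higher in long conceptuses. Of all 9155 named genes 9.5% passed, 571 lower and 299 higher. The mitochondrial enzyme SHMT2 measured 8.40 ± 0.16 (SD, n = 5) in long and 9.16 ± 0.16 (SD, n = 5) in short ones, at -0.75 ± 0.10 (SE; limma adjusted p = 0.00788). Its mitochondrial neighbour MTHFD2 differed by -0.96 ± 0.24 (SE; adjusted p = 0.0417), and the cytosolic MTHFD1 by -0.42 ± 0.10 (SE; adjusted p = 0.0366). The carrier SLC19A1 itself, at 6.61 ± 0.13 (SD, n = 5) and 6.77 ± 0.12 (SD, n = 5), differed by -0.16 with adjusted p = 0.275.

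Single cell type markers passed for length, beside 9.5% of all named genes. Of all named genes 28.9% had an unadjusted p under 0.05 in limma. Of 7 measured hypoblast and visceral endoderm markers 1 was higher (APOA1, 0.59 ± 0.10, adjusted p = 0.00982) and 1 lower (PDGFRA, -1.80 ± 0.21, adjusted p = 0.00759, limma) in long conceptuses; the list averaged 7.36 to 7.56 in long and 7.61 to 7.82 in short ones. PDGFRA differed far more than the rest of that list, in which APOE stood at 0.18 and GATA4, GATA6, AFP and TTR at -0.11, -0.18, -0.16 and -0.11. Of 3 measured epiblast markers 1 was lower (DNMT3B, -0.39, adjusted p = 0.0337), with averages of 5.56 to 5.99 and 5.94 to 6.44. Trophectoderm had 1 of 6 higher (TFAP2A, 0.38, adjusted p = 0.045), and endothelium 1 of 6 higher (PECAM1, 0.99, adjusted p = 0.00902) and 1 lower (SOX18, -0.84, adjusted p = 0.0145). Endometrial and erythroid markers had 0 of 9 and 0 of 7 past the threshold in limma, 1 and 0 having an unadjusted p under 0.05, with medians of -0.05 and -0.08; SLC4A1, the anion exchanger of red cells and a member here, differed by 0.05. Background-corrected arrays have no true zero, so no marker could be called absent. The part of these markers in the differences of the carriers was not tested.

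How firmly each call stands differed between genes. Alternative fits were read out for member genes only, so the calls of partner and marker genes were not rechecked in them. With each of the 10 conceptuses left out in turn, SLC5A5 and SLC31A2 passed in all 10 fits, with highest adjusted p of 0.0172 and 0.0359. SLC29A2 lost its call in 3 fits, SLC35A3 in 4, and SLC35A1, SLC35A4, SLC9A3, SLC11A1 and SLC30A2 in 8 each, with a highest adjusted p of 0.0596 to 0.114. The count of 9 fell to 2 without short replicate 4 or 5, to 3 without long replicate 1 or 2 and to 4 without long replicate 4 or 5.

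SLC5A5 was the single member called without long replicates 1 and 2 (-1.51, adjusted p = 0.0368), when the conceptus with disagreeing labels was counted as long (-1.60, adjusted p = 0.0318) and when short replicates 4 and 5 were left out together (-1.50, adjusted p = 0.0207). The same held when title prefixes entered as fixed blocks (-1.74, adjusted p = 0.00571). Titles share prefixes whose meaning is not given, and 2 of 7 prefixes hold both lengths. Within these, SLC5A5 differed by -1.71 (2 long, 1 short) and -1.77 (1 long, 2 short), and SLC31A2 by 0.90 and 0.51. SLC35A3, SLC35A1 and SLC11A1 were positive in both, at 0.50 and 0.25, 0.46 and 0.21, and 0.24 and 0.28. SLC29A2 (-0.21 and -0.34), SLC35A4 (-0.27 and -0.31), SLC9A3 (-0.67 and -0.20) and SLC34A2 (-0.22 and -0.67) were negative in both, and SLC30A2 measured -0.47 and -0.00. The fixed-block fit draws its length difference from these 2 prefixes alone. It therefore rests on fewer conceptuses than the main fit and is not separate from the values within prefixes.

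**Figure D4:**
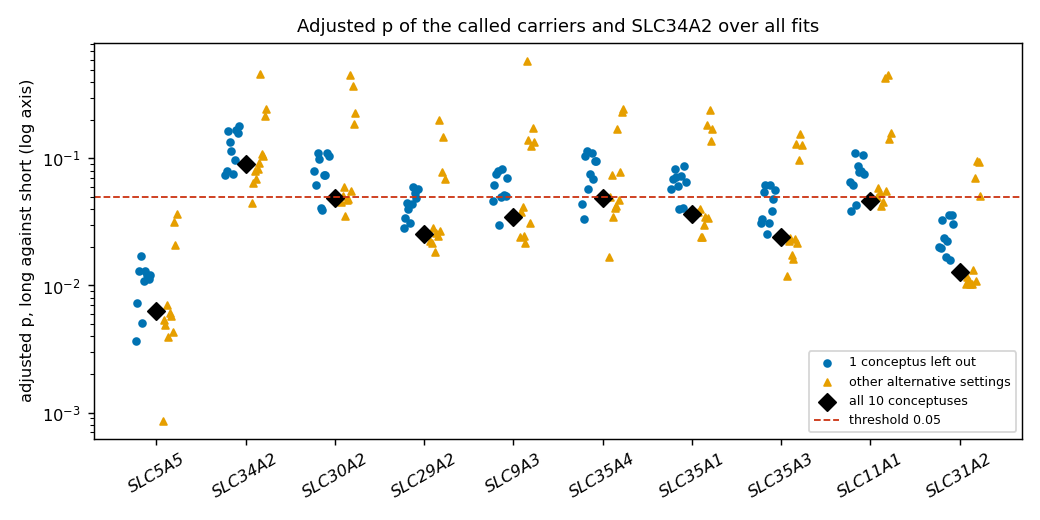
Adjusted p of the length difference (log axis) for the 9 called genes and SLC34A2; the diamond is the fit of all 10 conceptuses, circles are fits with 1 conceptus left out, triangles the other alternative settings, and the dashed line is 0.05. SLC5A5 stays below the line in every fit shown, SLC31A2 crosses it in 4 settings, and the other 7 called genes cross it both among circles and among triangles.

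The second comparison asked whether carriers differ on Day 15 by the grade of the embryo on Day 6.5. No member passed between the 3 Grade 3 and the 11 Grade 1 conceptuses in limma, and neither did any of the 24016 probe sets (0%); the smallest adjusted p of a member was 0.872. An unadjusted p under 0.05 was reached by 8 of 107 member probe sets (7.48%) and 5.06% of all. The groups did not overlap in 1 member probe set (0.935%), against 0.554% of all. The median over the 77 genes was -0.017, Grade 3 minus Grade 1, beside -0.002 for all named genes.

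SLC34A2 had the largest of these differences among the 77 genes. It measured 7.20, 7.06 and 7.93 in Grade 3, against a lowest, median and highest value of 6.24, 6.71 and 7.77 in Grade 1. Grade 3 values lay in the upper range of Grade 1, above 9 of its 11 conceptuses; only short replicates 3 and 5 reached as high. The difference was 0.66 ± 0.25 (SE; limma adjusted p = 0.927), with an interval of 0.13 to 1.20. Without Grade 3 replicate 3, the highest, it was 0.40.

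SLC11A2, the iron importer, had the smallest p of the members. It measured 8.81, 8.77 and 9.06 in Grade 3 and 9.01, 9.21 and 9.66 as lowest, median and highest of Grade 1. A pair of Grade 3 conceptuses lay below all of Grade 1 and replicate 3 within it. The difference was -0.36 ± 0.12 (SE; limma adjusted p = 0.872).

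The other genes with the smallest p differed by less. SLC4A4, the sodium bicarbonate cotransporter, measured 3.72 ± 0.08 (SD, n = 3) and 3.48 ± 0.14 (SD, n = 11), SLC39A9 9.21 ± 0.10 and 9.39 ± 0.10, and SLC22A23, a family member of unsettled function, 7.05 ± 0.22 and 6.72 ± 0.24. The inositol carrier SLC5A11 gave 4.32, 4.20 and 4.21 in Grade 3 against 3.76, 4.03 and 4.18, and was the gene without overlap, narrowly and at a low level. Their differences of 0.24, -0.18, 0.33 and 0.21 had limma adjusted p of 0.922 to 0.97. The second probe set of SLC39A9 stood at 0.04, so its probe sets disagreed in sign.

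SLC5A5 did not separate the grades, at -0.14 ± 0.48 (SE; limma adjusted p = 0.999). Grade 1 held both of its extremes, 5.52 and 8.07, with a median of 7.01, and the Grade 3 values lay inside that range. No title prefix holds both grades, so grade and prefix cannot be told apart in any comparison with Grade 3. The grade comparison also sets 3 conceptuses of unrecorded length against a group that holds both lengths.

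Grade 3 was therefore also set against each length group in 1 fit of the 3 groups; both comparisons use the same Grade 3 conceptuses. Against long conceptuses 0 of 107 member probe sets passed in limma, as did 0% of all; 18 (16.8%) had an unadjusted p under 0.05, against 9.06% of all, and 12 (11.2%) did not overlap, against 7.14%. Against short conceptuses 0 passed, again as 0% of all; 12 (11.2%) had an unadjusted p under 0.05, against 10.6%, and 8 (7.48%) did not overlap, against 6.08%. The smallest adjusted p of a member was 0.297 and 0.201. With sex as a covariate SLC5A5 passed against long conceptuses, at 0.97 ± 0.15 (SE; limma adjusted p = 0.027). How many of all probe sets passed in that setting was not counted.

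SLC5A5 was 0.74 ± 0.21 (SE; limma adjusted p = 0.34) above the long and 0.97 below the short group (-0.97 ± 0.21; adjusted p = 0.201). It was the only member whose Grade 3 values all lay between those of the long and the short group, a pattern found in 56 of 24016 probe sets (0.233%). SLC34A2 was 0.95 ± 0.24 (SE; limma adjusted p = 0.297) above the long group without overlap, and 0.37 ± 0.24 (adjusted p = 0.609) above the short group, which it overlapped. The latter value was 0.11 without Grade 3 replicate 3 and 0.56 without short replicate 3.

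The other genes called for length lay on either side. SLC31A2 was 0.46 below the long group on average (-0.46 ± 0.18), since replicates 1 and 2 measured 6.83 and 6.96, near the short group, and replicate 3 measured 7.64, at the long mean of 7.61. SLC35A3, at 10.43, 10.32 and 10.55, did not overlap the short group, and SLC35A1, at 9.49, 9.52 and 9.42, and SLC11A1, at 4.82, 4.91 and 4.91, did not overlap the long one. SLC29A2 spread from 6.57 to 7.16 and SLC30A2 from 5.85 to 6.34, across much of both groups. SLC35A4, at 9.08, 9.09 and 8.85, lay below every short value, and SLC9A3, at 11.63, 11.82 and 11.92, reached from the long into the short range. None of these differences passed.

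By transport group, medians against all of Grade 1 lay between -0.11 for phosphate and sulfate and 0.08 for sodium-calcium exchange. Of the metal carriers 16 of 21 genes were lower on average in Grade 3, beside 4669 of all 9155, with a median of -0.05; of the acid-base and cation-chloride genes 5 of 14 were lower. None passed in limma. Among the metal carriers SLC11A2, SLC39A9 and 1 probe set of SLC39A6 had an unadjusted p under 0.05, beside 5.06% of all probe sets. The partner lists had 0 genes past the threshold of limma in each comparison with Grade 3, with medians from -0.09 to 0.08 against Grade 1, where 1 gene had an unadjusted p under 0.05.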

How the data were processed

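RNA of 14 bovine conceptuses was measured, 1 array each, from 250 ng of total RNA per the labels' protocols. The deposited values are log2 expression per probe set; the submitters' processing notes name RMA and Affymetrix Expression Console as the authors' tools, without versions, and the set of arrays normalised as one is not stated. RMA quantile-normalises arrays, which removes a shift common to all genes, and compresses small differences at low intensity. Array medians lay between 5.62 and 5.72 and values between 2.235 and 14.61; the lowest correlation between arrays was 0.9838. Of 24128 probe sets 112 controls were left out, which left 24016, of which 13292 had 1 symbol, 86 several and 10638 none. All 107 member probe sets matched the RefSeq gene table by Entrez number, and 0 symbols changed. Ratios of the 3′ to the 5′ control probe sets (log2) were -0.03 to 0.03 in long, -0.08 to 0.08 in short and -0.07 to 0.11 in Grade 3 conceptuses for GAPDH, and 1.34 to 1.84, 1.29 to 1.75 and 1.48 to 1.60 for actin.

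Comparisons used limma 3.58.1 (lmFit, eBayes) in R 4.3.3, two-sided, with Benjamini-Hochberg adjustment over all 24016 probe sets and a threshold of 0.05. Long was compared with short (5 and 5) and Grade 3 with all of Grade 1 (3 and 11), since the labels do not say which Grade 1 conceptuses the study set against Grade 3; a fit of 3 groups set Grade 3 against each length. The first principal component was taken over all 14 arrays. The fits were tested on simulated data in which 200 of 24016 probe sets changed by 1.25, 1.5, 2 or 3 fold. For length 22%, 72%, 96% and 98% of them were found (7.097% of calls false), for grade 28%, 76%, 92% and 98% (0.676%), and for Grade 3 against long and short 58% and 56% of 1.5 fold changes (3.704% and 6.475%). The simulated arrays were independent of each other, and simulated Grade 1 held no difference between long and short. The real Grade 1 group mixes lengths, so the shares found for grade may be too high. Real arrays may also be correlated, which the shares of false calls leave out.

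Named genes were every member called for length, the 6 with the smallest p for grade, SLC5A5 and SLC34A2, and called partner genes; other genes named to describe a transport group or list were chosen after their values were seen. The brightest probe set, by its mean on the 14 arrays, stood for a gene. The members and lists (transport groups; partner genes for iodide, zinc and copper, iron, sodium with chloride and acid-base, calcium and phosphate, nucleosides, folate; cell type markers) were chosen with earlier results of these data known. Alternatives were sex as a covariate, median centring, repeated quantile normalisation, a minimum mean of 5, an intensity trend, the mean of a gene's probe sets, title prefix as a fixed or random block, another group for the conceptus with disagreeing labels, an unadjusted p under 0.01 with 1.5 fold, and leaving out each conceptus. Leaving out short replicates 4 and 5 together, or long replicates 1 and 2, and all alternatives for the count over all probe sets, were added after seeing the data. Sequences and promoter motifs were not analysed here.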

Additional observations from a re-analysis of the deposited data

Results flagged for a closer look

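In 42 groups of values examined (the long and the short conceptuses for each named or most variable carrier), 2 held a conceptus that stood apart from its group, where chance gives about 1 in 20. SLC39A9, a zinc carrier of the Golgi and cell surface, measured 9.64 in short replicate 4 and 9.36 to 9.43 in the other short conceptuses. The gap to the nearest was 0.739 of the group's whole range. The dimmer probe set of SLC39A9 did not show this. There short replicate 4 was the lowest of its group, at 8.70, with the others at 8.73 to 8.83. SLC22A5, the carnitine importer, measured 6.95 in short replicate 1, the conceptus whose labels disagree on length, and 7.80 to 7.94 in the others, with a gap of 0.857 of the range.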

How the results depend on the processing

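The length count of 9 member probe sets (1577 of all) became 1 with title prefixes as fixed blocks (112), 1 with the conceptus of disagreeing labels counted as long (492), 1 with long replicates 1 and 2 removed (49) or short replicates 4 and 5 removed (51), both added after seeing the data, and 2 at an unadjusted p under 0.01 with 1.5 fold (554). Sex as a covariate gave 11 (2403). With 1 conceptus left out the counts ran from 2 to 7 and from 460 to 1697. The member count was 6 after median centring (1548 of all), 8 after quantile normalisation (1466) and 9 with an intensity trend (1824). It was 8 with a random block (1653). With a minimum mean of 5 it was 12 of 69 (2001 of 13995). Repeated quantile normalisation moved the split from 4 higher and 5 lower to 5 and 3 for members, and from 648 and 929 to 743 and 723 for all probe sets. For Grade 3 against long, sex as a covariate gave 1 member in place of 0. The count over all probe sets was not taken in that setting, so its background share is not known. Every other fit run for the 3 comparisons with Grade 3 gave 0 members, those with 1 conceptus left out included. Of the called genes, SLC5A5 kept its call in all 12 other settings and SLC31A2 in 8 (adjusted p = 0.07 with the fixed block, 0.095 with the relabelled conceptus, 0.0944 without short replicates 4 and 5, 0.0507 without long replicates 1 and 2). SLC29A2, SLC35A3 and SLC35A1 lost theirs in 5, SLC9A3 in 6, SLC35A4 in 7, and SLC11A1 and SLC30A2 in 8. With fixed blocks SLC35A3 (0.38), SLC35A1 (0.33) and SLC9A3 (-0.43) stayed about as large, SLC35A4 was -0.29 and SLC29A2 -0.28; SLC9A3 fell to -0.06 (adjusted p = 0.588) as the mean of its probe sets, the others of which are dim. The cause of the remaining changes was not tested. No difference of a named member gene changed sign. No paired analysis was possible because replicate numbers here follow accession order and pair no samples; title prefixes, whose meaning is not given, served as the blocks above. The promoter motifs were not run, as no sequence was used here.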

Other observations

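Some partner genes and markers differed widely between conceptuses without passing, and are named after their values were seen. Heme oxygenase 1 (HMOX1), which frees iron from heme, measured 8.22 ± 0.75 (SD, n = 5) in long, 9.55 ± 0.89 (SD, n = 5) in short and 8.28 ± 0.93 (SD, n = 3) in Grade 3 conceptuses, a length difference of -1.34 ± 0.43 (SE; limma adjusted p = 0.092). The zinc-binding metallothionein MT2A measured 6.95 ± 0.27 in long and 7.86 ± 0.85 in short conceptuses, at -0.91 ± 0.33 (SE; adjusted p = 0.134), and MT1A differed by -0.24 (adjusted p = 0.326). The epiblast factor POU5F1 differed by -0.82 ± 0.25 (SE; adjusted p = 0.0704).

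Of the 19 member genes with more than 1 probe set, 9 had length differences of both signs among their probe sets. Of the 77 genes, 58 had an SD under 0.25 over the 14 arrays and 2 had one of 0.5 or more, SLC13A2 (1.04) and SLC5A5 (0.81). Within groups the SD of SLC13A2 was 0.98 and that of SLC5A5 0.32.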
